A study of Gallus gallus with 4 samples.

Results

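THEMIS, CD226, SH2D1A and PRKCH are 4 genes of lymphocyte signalling among the 15271 genes measured in single blood leukocytes of laying hens. They were chosen by their measured levels in these same cells, which earlier results showed to be high in αβ T-cells or cytolytic cells and scarce in γδ T-cells, with THEMIS also present in B-cells that lack SOX5. The αβ against γδ, cytolytic against γδ and SOX5 B-cell against other B-cell values of the 4 genes are therefore given as a description without a test. Blood came from 4 clinically healthy female layers 24 weeks of age, named Bovans Robust in the labels and Dekalb White Leghorn-type in the methods, with no treatment. Leukocytes were enriched on Ficoll, thrombocytes were depleted with an antibody to CD41/61, and RNA of single cells was captured at its 3′ end with 10x Genomics chemistry. All cells belonged to 1 condition, so the comparisons are between cell groups within the same birds.

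All 4 proteins act just inside or at the lymphocyte membrane, as known mainly from mammals. THEMIS is a protein that binds the adaptor GRB2 and tunes T-cell receptor signals during thymic selection. CD226 is an activating receptor of T-cells and NK cells that binds nectin-family ligands. SH2D1A encodes SAP, the adaptor that links SLAM-family receptors to the kinase FYN, and PRKCH encodes protein kinase C eta, a kinase activated by diacylglycerol downstream of antigen receptors.

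In the RefSeq annotation of the chicken assembly GRCg7b, THEMIS lies on chromosome 3 from 58630133 to 58713450, CD226 on chromosome 2 from 93296610 to 93336871, SH2D1A on chromosome 4 from 15485698 to 15501642, and PRKCH on chromosome 5 from 53544204 to 53649520. THEMIS and PRKCH share no bases with another annotated gene. CD226 shares 259 bases at its end with DOK6, an adaptor of receptor tyrosine kinases, and 5386 bases with the long non-coding RNA LOC124417735. SH2D1A shares 1636 bases with LOC121110638, which was not used here. How reads in the shared stretches were assigned is not given in the sources used here, so values of CD226 and SH2D1A could include or lack such reads.

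The matrix held 16936 cells under 4 library labels. The barcodes of libraries 3 and 4 agreed for 4890 cells, in which the 4 genes differed in only 4 to 56 cells, so library 4 was dropped as a copy and 12042 cells of 3 libraries were kept (2697 to 4893 cells each, n = 3 hens). The other pairs of these libraries shared 1 to 9 barcodes. Values were whole-number scores whose totals per cell lay between 1577 and 3004. A level is the summed score of a gene divided by the summed score of all genes, times 10000, in the cells of a group and library.

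Cells formed 21 clusters, built without the 4 genes and without the marker genes, and 13 groups were named from markers. The groups used most were CD4 T-like (2432 cells, 3 clusters that met 3 to 8 of 8 markers such as CD28, BCL11B and CD5), CD8 T-like (736 cells, CD8A and CD8BP), Treg-like (493 cells, IL2RA and CTLA4), γδ T-like (2446 cells, TARP, the TCRγ transcript, and the TCRδ transcript LOC121110951), cytolytic-like (850 cells, GNLY, FASLG and granzymes), B-like (2096 cells, PAX5, EBF1 and Bu-1) and SOX5 B-like (178 cells). CD8 T-like cells met 4 of 7 markers and Treg-like cells 4 of 6, while the γδ, cytolytic and SOX5 B-like names rested on at least 6 markers. The αβ T-like group is the CD4, CD8 and Treg-like cells together (3661 cells). Its CD8 T-like part is not clearly αβ, because many of these cells also had a TARP score (share given below). The paper likewise regards its own CD8 cluster as a likely mixture of T-cells. Comparisons of the αβ T-like group with γδ T-like cells are therefore not purely αβ against γδ. Beside its main γδ clusters, the paper also places TCRγ/δ T-cells in a cytolytic sub-cluster and in a small cluster with distinct MYB expression. The γδ T-like group here thus need not hold all γδ T-cells. The paper regards its cytolytic cluster as probably of mixed lineage, with sub-clusters putatively of mainly NK cells and mainly cytotoxic T-cells. The cytolytic-like group here thus need not be T-cells alone. Monocyte-like cells (1626) served as the background for stray RNA, and 1 of their clusters also met all 4 heterophil markers.

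By their levels in αβ T-like against cytolytic-like cells, the 4 genes fell into 2 pairs. THEMIS and CD226 had higher mean levels in the αβ T-like group than in cytolytic-like cells, CD226 through its CD8 T-like part. SH2D1A and PRKCH, the second pair, were highest in cytolytic-like cells. Each gene was scarce in the clustered γδ T-like cells, a group that need not hold all γδ T-cells of the blood. THEMIS had levels of 14.1, 18.9 and 12.3 per 10000 in αβ T-like cells of libraries 1, 2 and 3, against 0.120, 0.0868 and 0.0634 in γδ T-like cells. The ranges were far apart in every library, and the ratio of means was 167 (117 to 217 within libraries). CD226 had levels of 10.4, 6.82 and 8.17 in αβ T-like cells and of 0.153, 0.187 and 0.0453 in γδ T-like cells, a ratio of 65.9 that ran from 36.5 to 180 between libraries. That spread came mostly from the γδ side, where library 3 held the fewest CD226 scores. The contrast was smallest for SH2D1A, at 2.31, 2.44 and 2.33 in αβ T-like cells against 0.269, 0.300 and 0.294 in γδ T-like cells, a ratio of 8.20. PRKCH had 4.16, 4.07 and 4.59 against 0.0741, 0.120 and 0.0860, a ratio of 45.7.

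Cytolytic-like cells stood further above γδ T-like cells for the second pair. PRKCH reached 37.6, 28.8 and 28.6 per 10000 in cytolytic-like cells, 339 times the γδ mean, and 97.4% ± 2.19 of these cells (SD, n = 3) had a PRKCH score above 0. SH2D1A reached 21.6, 11.3 and 14.5, which was 54.8 times the γδ mean, in 82.7% ± 5.87 of cells. THEMIS and CD226 were lower there, at 1.33 ± 0.521 and 3.43 ± 0.691, yet still 14.7 and 26.8 times the γδ mean. Library 1 had the highest SH2D1A and PRKCH levels in these cells.

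The low γδ levels were set against the stray RNA seen in monocyte-like cells. A PRKCH score was found in 1.33% ± 0.209 of γδ T-like cells and in 2.52% ± 0.818 of monocyte-like cells, at median totals of 2408.5 and 2411.5 per cell. By contrast, an SH2D1A score was found in 5.51% ± 0.622 of γδ T-like cells and in 0.346% ± 0.496 of monocyte-like cells. THEMIS was found in 1.04% ± 0.351 and 0.285% ± 0.307 and CD226 in 1.94% ± 0.812 and 0.602% ± 0.229, respectively. The γδ share was thus above the monocyte-like share for SH2D1A, by the widest margin, and for THEMIS and CD226, and below it for PRKCH. The PRKCH reference varied, with 15 of 980 cells in 1 monocyte-like cluster, 22 of 646 in the one that met heterophil markers, 2 of 410 thrombocyte-like cells and 0 of 239 eosinophil-like cells, so whether the 33 γδ T-like cells exceed stray RNA was not settled. For CD226 other groups varied as well, with 5 of 239 eosinophil-like, 31 of 2096 B-like, 7 of 178 SOX5 B-like and 2 of 410 thrombocyte-like cells. Whether the 46 of 2446 γδ T-like cells with a CD226 score exceed stray RNA was likewise not settled. When cells were instead sorted by their own marker scores without clusters, the γδ T-like levels were 0.581 for THEMIS, 0.852 for CD226, 0.501 for SH2D1A and 0.669 for PRKCH, all above the clustered values and all below the αβ T-like levels. That sorting also took in some cells from outside the γδ clusters.

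**Figure D1:**
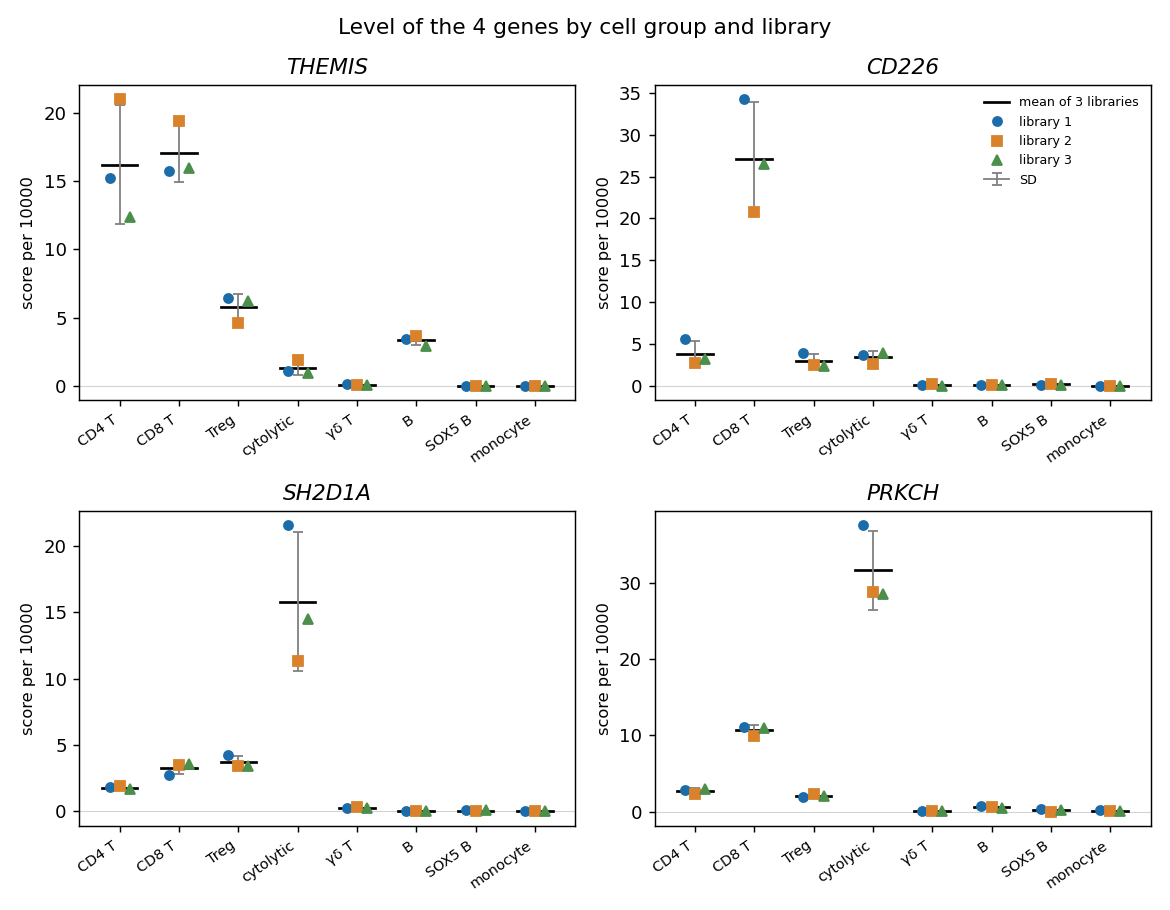
Level (score per 10000, linear axis) of each gene in 8 cell groups, with 1 point per library, the mean as a bar and the SD as a whisker. THEMIS was highest in CD4 and CD8 T-like cells, CD226 in CD8 T-like cells, and SH2D1A and PRKCH in cytolytic-like cells, while all 4 genes were under 0.31 in every library of γδ T-like cells.

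Over the 13 named groups, THEMIS ran from CD8 T-like (17.04 ± 2.07) and CD4 T-like (16.2 ± 4.39), whose libraries overlapped, through Treg-like (5.75 ± 1.00) and B-like (3.34 ± 0.373) to cytolytic-like cells. Treg-like cells overlapped neither the CD4 T-like nor the B-like range, and B-like cells did not overlap the cytolytic-like range. For CD226, CD8 T-like cells (27.1 ± 6.77) stood alone, and CD4 T-like (3.86 ± 1.51), cytolytic-like (3.43 ± 0.691) and Treg-like cells (2.95 ± 0.820) overlapped each other in turn. For SH2D1A, cytolytic-like cells (15.8 ± 5.24) stood alone above the overlapping Treg-like (3.70 ± 0.462), proliferating-like (3.49 ± 1.68) and CD8 T-like cells (3.26 ± 0.461), followed by CD4 T-like cells (1.80 ± 0.133), which overlapped neither neighbour. For PRKCH, cytolytic-like cells (31.7 ± 5.16) stood alone, CD8 T-like cells (10.7 ± 0.661) overlapped only the proliferating-like cells (7.19 ± 5.15), whose library 2 value was 1.24, and CD4 T-like (2.72 ± 0.318), Treg-like (2.11 ± 0.233) and B-like cells (0.658 ± 0.133) followed. The lowest CD4 T-like and the highest Treg-like library met at 2.36, and B-like cells lay below both. Thrombocyte, eosinophil, basophil and red blood cell-like cells had means of at most 0.199 for every member, except THEMIS in red blood cell-like cells at 0.458, which came from 1 cell of library 3.

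The first tested comparison asked whether the members differ between the 2 main parts of the αβ T-like group, which the choice of the genes did not use. In CD8 T-like cells, CD226 and PRKCH were several-fold higher than in CD4 T-like cells, SH2D1A was modestly higher, and THEMIS was not distinguishable. CD226 had 34.2, 20.7 and 26.4 per 10000 in CD8 T-like cells of libraries 1 to 3 and 5.58, 2.77 and 3.21 in CD4 T-like cells. Library 1 was highest in both groups, and the groups did not overlap. Its log2 difference was 2.82 (SE 0.23, limma adjusted p = 1.73e-06). CD226 was already known from these data to mark CD8 cells, so its p is no independent evidence. PRKCH had 11.1, 9.89 and 11.02 against 2.85, 2.36 and 2.96, again without overlap, with a log2 difference of 1.93 (SE 0.13, adjusted p = 3.19e-07). SH2D1A had 2.73, 3.47 and 3.57 against 1.81, 1.92 and 1.66, a log2 difference of 0.82 (SE 0.15, adjusted p = 0.00289). Without library 3 the SH2D1A difference was 0.69 with an adjusted p of 0.103. THEMIS had 15.7, 19.4 and 16.0 against 15.2, 21.0 and 12.4, which overlapped, with a difference of 0.10 and a 95% interval from -0.27 to 0.47 (adjusted p = 0.809). Of the 4 members 3 passed the threshold, CD226 included, where 7.22% of the 9410 genes tested did (350 higher and 329 lower, or 1033 genes with the library as a block). That share covers genes of all tested levels and was not matched to the members.

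Of 44 tested genes of T-cell receptor-proximal signalling, 8 were higher and 8 lower in CD8 T-like cells, with a median log2 difference of -0.08 beside -0.000503 over all genes. The largest rises were in PLCG2, a phospholipase of antigen receptor signalling (1.12), CBLB, a ubiquitin ligase that restrains T-cell activation (1.04), and TEC, a kinase (0.87). The largest falls were in CD6 (-1.74) and CD5 (-1.10), scavenger-type receptors that dampen T-cell signals, and CD28 (-1.15), the main costimulatory receptor. CBLB was among the markers that named the CD8 T-like cluster, and CD28 and CD5 among those that named the CD4 T-like clusters, so their directions were set by the naming. In the SAP and SLAM list only CD244, a SLAM-family receptor that binds SAP, passed, at 1.46 higher (1 of 8 tested). SH2D1B, the second SAP-family adaptor, did not pass, at 0.715 against 0.957 (adjusted p = 0.211).

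Treg-like cells were set against CD4 T-like cells in the same way, and THEMIS and SH2D1A moved in opposite directions. THEMIS had 6.41, 4.60 and 6.26 in Treg-like cells against 15.2, 21.0 and 12.4, a log2 difference of -1.46 (SE 0.20, adjusted p = 0.00158). Library 2 had the lowest Treg-like and the highest CD4 T-like level, so the within-library ratio went from 0.219 to 0.504. SH2D1A had 4.23, 3.45 and 3.42 against 1.81, 1.92 and 1.66, a difference of 1.00 (SE 0.15, limma adjusted p = 0.00295). CD226 (2.95 ± 0.820 against 3.86 ± 1.51, adjusted p = 0.583) and PRKCH (2.11 ± 0.233 against 2.72 ± 0.318, adjusted p = 0.321) did not pass. THEMIS lost its call without library 1 (-1.57, adjusted p = 0.0774), and SH2D1A lost it without library 1 (adjusted p = 0.135) and without library 3 (adjusted p = 0.0921). The 2 calls compare with 4.18% of 9440 genes (704 genes with the library as a block against 395 without). Of 44 tested T-cell receptor-proximal genes only 3 passed. PLCG2 was higher (1.93, from a low 0.0588 in CD4 T-like cells). PAG1, which anchors the inhibitory kinase CSK (-0.99), and GRAP2, an adaptor of the LAT signalling complex (-0.66), were lower. ITGB2, an integrin beta chain of leukocytes, was higher by 0.85 (adjusted p = 0.0396), and no SAP and SLAM or protein kinase C gene passed.

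All 4 members differed between cytolytic-like and CD8 T-like cells, and they did so in opposite pairs. THEMIS had 1.08, 1.92 and 0.971 in cytolytic-like cells against 15.7, 19.4 and 16.0 in CD8 T-like cells. It was 12.8-fold lower in cytolytic-like cells (log2 difference -3.64, SE 0.20, limma adjusted p = 1.91e-10). CD226 had 3.69, 2.65 and 3.96 against 34.2, 20.7 and 26.4, 7.91-fold lower (log2 difference -2.94, SE 0.19, adjusted p = 9.08e-10). The other pair went up. SH2D1A had 21.6, 11.3 and 14.5 against 2.73, 3.47 and 3.57, 4.85-fold higher (log2 difference 2.20, SE 0.20, adjusted p = 9.79e-08), with library 1 at 7.90-fold and library 2 at 3.26-fold. PRKCH had 37.6, 28.8 and 28.6 against 11.1, 9.89 and 11.02, 2.97-fold higher (log2 difference 1.55, SE 0.14, adjusted p = 1.58e-07). No member overlapped between the groups, and each went the same way in 3 of 3 libraries, in a comparison where 19.4% of 9629 genes passed. The share of all genes without overlap was not counted, so the lack of overlap has no background here. The genes were chosen for high levels in 1 or other of these groups, and CD226 was known to mark CD8 cells. Neither the p-values nor the lack of overlap are therefore independent evidence. Median mitochondrial shares were 12.6% in the cytolytic-like and 7.87% in the CD8 T-like cluster, and their part in these differences was not tested, though the 4 calls held when cells over 20% were left out.

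Cytolytic-like cells also differed from CD8 T-like cells in many genes of the wider lists. Of 43 tested T-cell receptor-proximal genes, 8 were higher and 11 lower in cytolytic-like cells, with a median of -0.11 beside -0.13 over all genes. PLCG2 (2.90, from 0.256 in CD8 T-like cells), UBASH3B, a phosphatase that restrains receptor signalling (1.47), and PTPN6, a tyrosine phosphatase of inhibitory receptors (1.37), rose most. CD28 (-3.16), TXK, a Tec-family kinase (-2.83), and SKAP1, an adaptor of integrin activation (-1.15), fell most. In the SAP and SLAM list 3 of 8 genes were higher and 1 lower: CD244 rose by 2.13, FYN, the kinase that SAP recruits, by 1.13, SH2D1B by 0.86, and the receptor SLAMF1 changed by -1.90. ITGB2 was 1.77 higher.

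**Figure D2:**
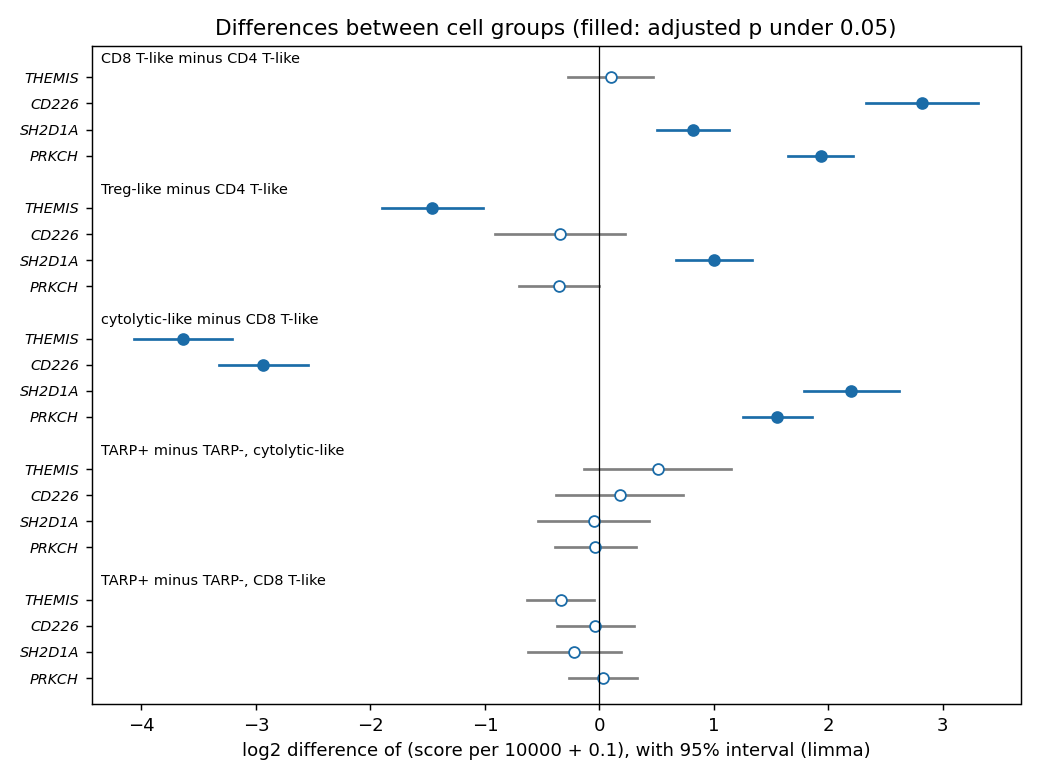
Log2 difference of (score per 10000 + 0.1) with its 95% interval for each gene in 5 comparisons, filled where the limma adjusted p passed the threshold. CD226 and PRKCH were higher in CD8 than in CD4 T-like cells, THEMIS and CD226 lower and SH2D1A and PRKCH higher in cytolytic-like than in CD8 T-like cells, and no gene passed between cells with and without TARP.

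The next comparison split CD8 T-like and cytolytic-like cells by a score of the TCRγ transcript TARP. No member passed the threshold against cells of the same group without it. A TARP score was present in 56.1% of cytolytic-like cells (477 of 850) and 51.6% of CD8 T-like cells (380 of 736), against 88.1% of γδ T-like cells, 1.81% of B-like cells and 0.861% of monocyte-like cells. The TCRδ transcript was in 3 cytolytic-like cells and 1 CD8 T-like cell, but in 31.2% of γδ T-like cells. The paper putatively names a TARP-high sub-cluster of its cytolytic cells as mostly CD8-positive TCRγ/δ T-cells. It putatively names the other sub-clusters as mainly NK cells and mainly cytotoxic T-cells. Whether the TARP-positive cells here are γδ T-cells was not tested. PRKCH had 37.0, 29.3 and 27.8 in TARP-positive cytolytic-like cells and 38.5, 28.2 and 29.8 in TARP-negative ones, a log2 difference of -0.03 with a 95% interval from -0.39 to 0.32 (adjusted p = 0.997). SH2D1A had 20.9, 11.1 and 14.5 against 22.4, 11.5 and 14.4, a difference of -0.05 (interval -0.53 to 0.43). In both genes the libraries differed from each other more than the cell classes did. CD226 (3.52 ± 0.165 against 3.33 ± 1.39, difference 0.18) and THEMIS (1.60 ± 0.934 against 0.989 ± 0.0145, difference 0.51, interval -0.14 to 1.15) did not pass either. With 0 members called, the single call among 9228 genes (0.0108%) was TARP, the gene that made the classes, and 390 genes had an unadjusted p under 0.05, none of the members among them. With the library as a block 8 genes passed, none a member.

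In CD8 T-like cells, a comparison added after the TARP levels were seen, again no member passed. CD226 had 33.6, 19.9 and 26.97 in TARP-positive and 34.8, 21.8 and 25.8 in TARP-negative cells (log2 difference -0.04, interval -0.37 to 0.30), and PRKCH had 10.8, 10.5 and 10.9 against 11.3, 9.13 and 11.2 (0.03, interval -0.26 to 0.33). SH2D1A was at 3.01 ± 0.355 against 3.59 ± 0.949 (-0.22, interval -0.63 to 0.19). THEMIS was lower in the TARP-positive cells of all 3 libraries, at 12.9, 18.2 and 14.5 against 18.3, 21.0 and 17.8, but the difference of -0.34 had an unadjusted p of 0.0258 in limma and an adjusted p of 0.970. Of 9603 genes 0.0104% passed, again TARP alone, with 425 genes at an unadjusted p under 0.05, THEMIS among them, and 4 genes past the threshold with the library as a block, none of them a member. Set beside γδ T-like cells, TARP-positive cytolytic-like cells had 336 times the PRKCH, 53.9 times the SH2D1A, 27.5 times the CD226 and 17.7 times the THEMIS level. TARP-positive CD8 T-like cells had 168 times the THEMIS, 209 times the CD226, 115 times the PRKCH and 10.5 times the SH2D1A level. These ratios follow from how the genes were chosen. Of the clustered γδ T-like cells only 16 had a CD8A score, too few per library to compare.

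**Figure D3:**
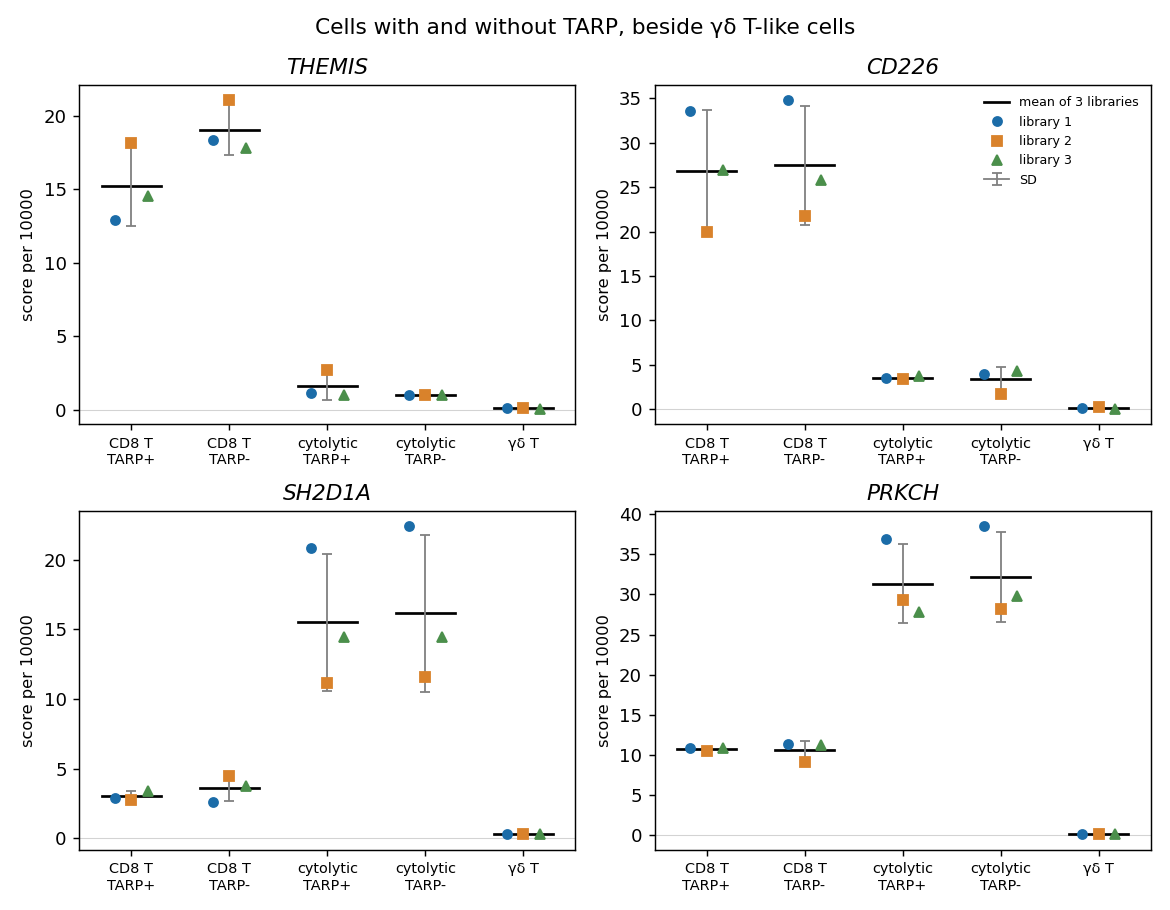
Level (score per 10000, linear axis) of each gene in TARP-positive and TARP-negative cells of the CD8 T-like and cytolytic-like groups and in γδ T-like cells, with 1 point per library, the mean as a bar and the SD as a whisker. No gene passed the test between TARP-positive and TARP-negative cells, though THEMIS was lower in TARP-positive CD8 T-like cells of all 3 libraries, and cytolytic-like THEMIS was itself low (0.969 to 2.67).

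Outside T-cells and cytolytic cells, THEMIS was present in B-like cells. B-like cells had 3.45, 3.64 and 2.92 per 10000, and a THEMIS score was found in 33.6%, 36.1% and 33.4% of cells, so the 3 libraries were close together. The level was 4.86-fold under that of CD4 T-like cells and 37.0 times that of γδ T-like cells. Both B-like clusters carried it, at 3.83 ± 0.358 in the larger and 2.74 ± 0.423 in the smaller. Over the group, 716 of 2096 B-like cells (34.2%, exact 95% interval 32.1 to 36.2) had THEMIS, against 4 of 1626 monocyte-like cells (0.246%, interval 0.0671 to 0.629), at median totals of 2389 and 2411.5. The intervals cover counting error only.

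SOX5 B-like cells had no THEMIS score at all, in 53, 42 and 83 cells of the 3 libraries. A count of 0 in 178 cells allows a share of cells with a THEMIS score of up to 1.69% (3 counts of the total). This count does not limit the share of cells that express THEMIS. The B-like level was 50.9-fold above a floor of 3 counts over the clustered SOX5 B-like group. THEMIS was chosen by this contrast, and the ratio is no lower limit on the difference. Within B-like cells THEMIS was found in 34.3% of 2021 cells without SOX5 (interval 32.2 to 36.4), in 31.1% of 61 cells with a SOX5 score of 1 to 4 (19.9 to 44.3) and in 4 of 14 cells with 5 or more (28.6%, 8.39 to 58.1). These intervals overlapped, but they pool single cells of 3 hens and cover counting error only. A difference by SOX5 score inside the B-like group was therefore not tested, and SOX5-positive cells were few. When cells were sorted by single marker scores and a SOX5 score of 3 was enough, the SOX5 B-like THEMIS level was 0.411. All 8 B-cell markers were present in the SOX5 B-like cells, with a summed level of 118 to 135 per library against 132 to 136 in B-like cells.

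The summed T-cell markers were lower in SOX5 B-like than in B-like cells, mainly through TRBV6-5. The pooled levels of CD3D, CD5 and IL7R were also several-fold lower in SOX5 B-like cells. CD3E differed little, and CD4, CD28 and BCL11B were not lower. All 8 CD4 T-cell markers were above 0 in both, and their summed level was 6.31 to 7.52 per 10000 in B-like cells, 0.454 to 3.20 in SOX5 B-like cells and 82.2 to 90.0 in CD4 T-like cells. The TCRβ segment TRBV6-5 made up most of it, at 4.70 ± 0.631 in B-like, 0.367 ± 0.278 in SOX5 B-like and 0.0555 ± 0.0410 in monocyte-like cells. Set against 6 other T-cell genes (CD28, BCL11B, CD3E, CD3D, CD5 and IL7R), B-like cells had 155 THEMIS scores for every 100 of these genes, CD4 T-like cells 23.8, CD8 T-like cells 32.0 and monocyte-like cells 1.96. TRBV6-5, the T-cell marker highest in B-like cells, was not among the 6. With it the ratios would be lower, and would fall further in B-like than in CD4 T-like cells. Its pooled level was 4.77 in B-like and 17.7 in CD4 T-like cells, beside THEMIS means of 3.34 and 16.2. B-like cells with and without THEMIS had levels of CD3E (0.161 ± 0.0168 and 0.133 ± 0.0485), BCL11B (0.319 ± 0.0685 and 0.295 ± 0.0160), PAX5 (23.9 ± 1.81 and 23.2 ± 0.960) and EBF1 (55.2 ± 3.13 and 53.4 ± 1.76) whose differences were smaller than the larger SD of each pair. TRBV6-5 and CD3D, the listed T-cell markers highest in B-like cells, are not given here for cells with and without THEMIS. The part of T-cell RNA in the B-like THEMIS level was not tested beyond these values.

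**Figure D4:**
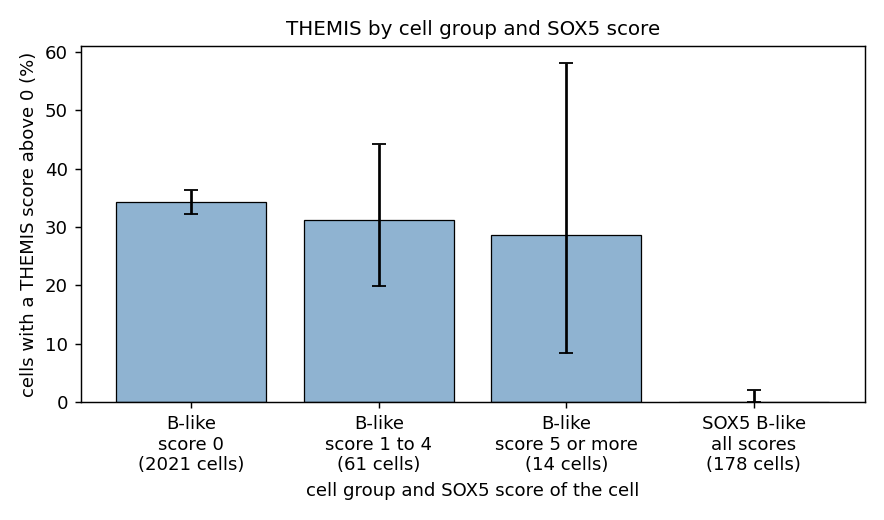
Share of cells with a THEMIS score above 0 (%, bars from 0, whiskers are exact 95% binomial intervals) in B-like cells by their SOX5 score and in all SOX5 B-like cells. The B-like shares were 34.3%, 31.1% and 28.6% with overlapping intervals, against 0 of 178 SOX5 B-like cells, the contrast that chose THEMIS.

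The other members were scarce in both kinds of B-cell. PRKCH had 0.794, 0.650 and 0.529 in B-like cells, in 11.5% ± 0.772 of cells and so above the monocyte-like 2.52%, and 0.381, 0 and 0.185 in SOX5 B-like cells. CD226 had 0.0874 ± 0.0183 and 0.188 ± 0.0736, and SH2D1A 0.0266 ± 0.00567 and 0.0563 ± 0.0494, the latter from 3 counts in SOX5 B-like cells. THEMIS2, the relative of THEMIS that is known from B-cells and macrophages of mammals, was at 0.27 in monocyte-like cells, 0.03 in SOX5 B-like cells and 0.01 in B-like cells.

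Beside the members, the fixed lists were counted in the 3 contrasts that chose them. Between αβ and γδ T-like cells, 21.8% of 9394 genes passed the threshold (1108 higher in αβ and 943 lower). Of 44 tested T-cell receptor-proximal genes 13 were higher and 7 lower, with a median log2 difference of 0.07 beside 0.05 over all genes. FYB1, an adaptor of integrin activation (3.91), CD28 (3.11) and CD6 (2.71) led the higher genes, and PAG1 (-1.94), the kinase ZAP70 that binds the CD3 chains (-1.66) and VAV2, an exchange factor (-1.01), the lower ones. CD28 was among the markers that named the CD4 T-like clusters, so its direction here was partly set by the naming. LCK, the kinase that starts the signal, was 1.49 higher in αβ cells. In the SAP and SLAM list SH2D1B was 2.88 higher in αβ T-like cells (0.916 against 0.0396, adjusted p = 2.75e-08), so both SAP-family adaptors were scarce in γδ T-like cells, whereas CD244 (-1.30), SLAMF1 (-0.84) and FYN (-0.46) were lower in αβ cells. With the library as a block 40 genes of the 4 lists passed instead of 26.

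Between cytolytic-like and γδ T-like cells 27.7% of 9534 genes passed, among them 15 T-cell receptor-proximal genes that were higher and 7 that were lower of 44 tested (median 0.09 beside -0.08). FYB1 (3.48), PLCG2 (2.78) and CBLB (2.54) were highest, and TXK (-3.58), PAG1 (-2.25) and VAV2 (-1.86, with VAV2 at 0 in every cytolytic-like library) lowest. In the SAP and SLAM list 3 of 8 genes were higher, SH2D1B by 3.42, CD244 by 1.80 and FYN by 0.89, and SLAMF1 was lower (-2.69). Between SOX5 B-like and other B-like cells 10.9% of 9983 genes passed (526 higher and 565 lower), with 9 T-cell receptor-proximal genes higher and 5 lower of 41. UBASH3B rose by 4.22, the adaptor SLA by 1.99 and SOS2, a RAS exchange factor, by 1.77, and SKAP1, listed at 0 in SOX5 B-like cells (-2.66), TXK (-2.18) and CD5 (-2.06) fell. Of the SAP and SLAM genes 4 of 8 were higher and 0 lower, led by SLAMF8 (2.50) and CD244 (2.40). The number of list genes called in the SOX5 contrast went from 19 to 4, 7 and 10 when library 3, 1 or 2 was left out.

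PRKCH was the member of the protein kinase C and D family with the widest range over lymphocytes, and its relatives took other patterns. PRKCH was chosen for its levels in these groups and its relatives were not, so its wide range follows from the choice. Of 11 other family genes 9 were measured and tested. PRKCE, an epsilon isoform of the same diacylglycerol-dependent branch, followed PRKCH in part, at 25.9 in cytolytic-like, 21.3 in CD8, 13.7 in CD4 and 8.83 in γδ T-like cells, and was 0.63 higher on the log2 scale in CD8 than in CD4 (adjusted p = 0.00320) and 1.55 higher in cytolytic than in γδ T-like cells (adjusted p = 3.06e-06). PRKCQ, the theta isoform of the T-cell synapse, was at 4.96 in γδ T-like cells and 5.79 in αβ T-like cells, with no call between them (adjusted p = 0.246). PRKCB, the beta isoform of B-cell receptor signalling, went against PRKCH, at 2.54 in γδ T-like, 0.243 in αβ T-like and 3.41 in B-like cells (αβ minus γδ -2.97, adjusted p = 2.98e-08), although it was 2.30 higher in CD8 than in CD4 T-like cells. PRKCD was highest in cytolytic-like cells (7.11, 0.93 above CD8 T-like cells, adjusted p = 0.000170). PRKCA was lower in CD8 than in CD4 T-like cells (-0.73) and PRKCZ lower in cytolytic-like than in CD8 T-like cells (-1.01), while PRKCI and PRKD3 passed in no comparison. In SOX5 B-like cells PRKCQ (1.89) and PRKCA (1.39) were higher and PRKD1 lower (-1.19) than in other B-like cells. CD8 against CD4 T-like cells called 3 of the 9 higher and 2 lower, where 7.22% of all genes tested passed.

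**Figure D5:**
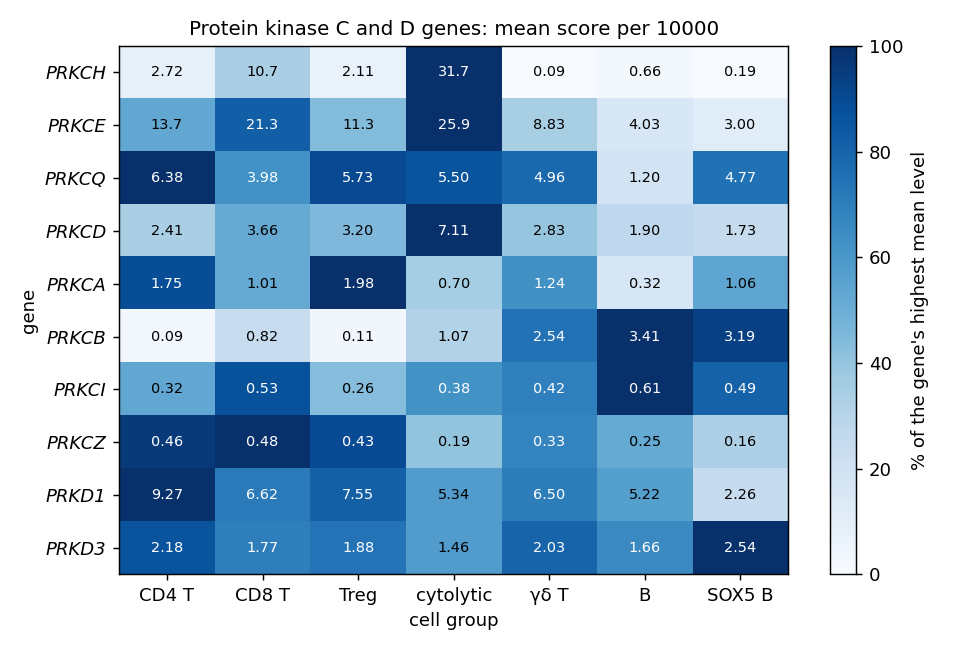
Mean level (score per 10000, number in each cell, n = 3 libraries) of PRKCH and 9 relatives in 7 cell groups. Shading is the share of the gene's highest mean among these 7 groups (colour scale in %). Groups not shown had higher means of PRKD1 (50.1 in thrombocyte-like cells), PRKCB (4.05 in basophil-like cells) and PRKCZ (0.529 in red blood cell-like cells). PRKCH went from 31.7 in cytolytic-like to 0.09 in γδ T-like cells, the contrast that chose it. PRKCQ and PRKD1 were present in all T-like groups.

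Of 12 genes of CD226 ligands and related receptors, 4 were measured. CADM1, a nectin-like adhesion molecule that binds the CD226 relative CRTAM, reached 2.44 among monocyte-like cells but no more than 0.04 in any lymphocyte group, and NECTIN3 reached 0.00897 among monocyte-like cells. CRTAM was at 0.21 in cytolytic-like, 0.11 in CD8 and 0.01 in γδ T-like cells. It was higher in CD8 than in CD4 T-like cells by 0.92 (limma adjusted p = 0.0249) and in cytolytic than in γδ T-like cells by 1.52. Its highest mean was in thrombocyte-like cells, at 0.36, with 0, 0.42 and 0.661 in libraries 1, 2 and 3. ITGB2 was at 3.70 in cytolytic-like cells and 1.18 in γδ T-like cells (1.54 higher) and did not pass between αβ and γδ T-like cells (-0.32, adjusted p = 0.0972).

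Among 7126 genes compared over the 13 cell groups, as a description without a test, THEMIS was most like CD38, an ectoenzyme of lymphocytes (r = 0.947), the long non-coding RNA LOC124418346 (r = 0.941), DOK5 (r = 0.888), BMPR1A (r = 0.855) and LOC101749104 (r = 0.848). LOC124418346 lies 2353 bases from THEMIS, from 58715804 to 58720119 on chromosome 3. It had 0.423 ± 0.0533 in CD4 T-like, 0.526 ± 0.0670 in CD8 T-like and 0.134 ± 0.0549 in B-like cells, and 0 in every library of γδ T-like and SOX5 B-like cells. CD226 was most like LOC121110906 (r = 0.929), DOLPP1 (r = 0.920), DOK6 (r = 0.900), LOC101749104 (r = 0.899) and TRAT1, a T-cell receptor adaptor (r = 0.896). DOK6 is the gene that shares the end of CD226, and it had 6.93, 6.56 and 5.62 in CD8 T-like, 1.42, 1.16 and 1.70 in CD4 T-like and 0.735 ± 0.0260 in γδ T-like cells.

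SH2D1A was most like LOC121110906 (r = 0.945), its relative SH2D1B (r = 0.935), PRKCH (r = 0.932), DGKQ, a diacylglycerol kinase (r = 0.923), and TOX2 (r = 0.921). PRKCH was most like LOC121110906 (r = 0.958), SH2D1A, ENTPD8L1 (r = 0.927), CMC1 (r = 0.917) and DOLPP1 (r = 0.916). LOC121110906, which led for 3 of the 4 members, had mean levels of 3.15 in cytolytic-like, 2.82 in CD8, 0.560 in CD4 and 0.0135 in γδ T-like cells. Between members, THEMIS had the lowest values, at 0.632 with SH2D1A, 0.694 with PRKCH and 0.794 with CD226. CD226 was nearer to SH2D1A (r = 0.877) and PRKCH (r = 0.868) than to THEMIS. The 13 points share 3 libraries and include groups at or near 0 for all 4 genes, so they are not independent.

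In single cells the members overlapped most in CD8 T-like cells, where 28.0% ± 2.38 of cells had a score for all 4 and 49.0% ± 0.394 for 3 of them. In cytolytic-like cells 58.1% ± 1.87 had 2 and 4.71% ± 0.0791 had all 4, and in CD4 T-like cells 39.0% ± 0.597 had 2 and 4.97% ± 1.03 all 4. Treg-like cells had all 4 in 1.09% ± 0.947. Of 2446 γδ T-like cells, 90.9% ± 0.781 had none and 0 had a score for all 4, which allows a share of cells with all 4 scores of up to 0.123% (3 counts of the total) and does not limit the share that expresses them.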

How the data were processed

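The deposited matrix holds whole-number scores, which were read as SCTransform-corrected UMI counts (the authors counted with Cell Ranger, listed as 1.2.0 in the submitters' processing notes and as a later version in the methods, on GRCg7b, removed doublets and normalised each library in Seurat), and this reading could not be checked. A correction to equal depth makes true depth unknown, so no count model was used. The members and lists were chosen with earlier results of these data known.

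Cells of libraries 1 to 3 were clustered in Seurat 5.3.0 (3000 features without 187 member, marker and list genes, CCA integration over 30 dimensions, 27 components, resolution 0.8). Names required 3 or more markers, each at 2-fold the level in other cells and in 5% of the cluster's cells. No further doublet caller was run. Clusters 14, 17 and 19 stayed unnamed, and cluster 20, led by interferon genes, was counted as CD4 T-like.

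Scores were summed per library and group (at least 10 cells) and scaled to 10000. limma 3.58.1 with a trended prior was fitted on log2(level + 0.1) of every gene whose mean reached 0.05 in 1 of the groups, with Benjamini-Hochberg adjustment and a threshold of 0.05. Folds on that scale understate low genes. The code was tested on simulated data. An exact permutation test of 3 against 3 libraries cannot go below 0.1. The p-values set group differences against the spread between library profiles, with no library term in the main model. Groups come from clusters of the same cells, and the p-values do not cover that choice. Named were the 4 members, the 5 genes most alike (Pearson r over cell groups of log2(mean + 0.1), genes of at least 0.5 in some group), and list genes with the 3 largest and 3 smallest called differences, every protein kinase C and D and CD226-list gene, THEMIS2 and SH2D1B. LCK, named beside these, was chosen after its value was seen.

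Both profiles of a library come from the same hen, so the numbers pair the samples. Deviations of paired profiles correlated at 0.0518 to 0.459. No sequences were printed.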

Additional observations from a re-analysis of the deposited data

How the results depend on the processing

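Limits: levels rest on scores corrected by the authors, on 3 hens, and on groups rebuilt by clustering. The count of members called in each tested comparison was the same under every alternative run other than leaving out a library, and no called value reversed. Levels were less stable. With cells sorted by marker scores (the marker gate), 13 member levels moved by more than the SD between libraries and 11 did not. Scaling without ribosomal and mitochondrial genes moved 9 and left 23, and merging libraries without integration moved 1. Without 1 library the members called numbered 2 to 3 in CD8 against CD4, 0 to 2 in Treg against CD4, 4 in cytolytic against CD8 and 0 with TARP, and the list genes called 4 to 10 in SOX5 B-like cells.

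Counts of all genes past the threshold moved more. Without 1 library they ran from 314 to 520 (CD8 against CD4), 81 to 415 (Treg against CD4), 879 to 1727 (cytolytic against CD8), 970 to 1800 (αβ against γδ), 1272 to 2679 (cytolytic against γδ), 159 to 589 (SOX5 B-like) and 1 to 2 (TARP in CD8 T-like cells). With the replicate block, which pairs the profiles of a hen, they were 1033 (CD8 against CD4), 704 (Treg against CD4), 3278 (αβ against γδ, with 40 list genes), 8 (TARP in cytolytic-like cells) and 4 (TARP in CD8 T-like cells), and the block changed no call of a member. The marker gate gave 284 (CD8 against CD4), 1009 (cytolytic against CD8) and 8 (TARP in CD8 T-like cells). A filter at 0.5 gave 1278 (αβ against γδ) and 1685 (cytolytic against γδ), fewer genes being tested. No filter gave 263 (Treg against CD4) and 7 (TARP in CD8 T-like cells). Cells within 20% mitochondrial gave 2 (TARP in cytolytic-like cells). For the rest the cause was not tested.

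Clustered γδ T-like cells could not be compared by CD8A (5, 4 and 7 positive cells per library, under 10). Under the marker gate (14, 7 and 23 positive cells) libraries 1 and 3 could be compared. All 4 genes had higher levels in the CD8A-positive cells of both, such as PRKCH at 13.5 and 12.7 against 0.501 and 0.391. The limma adjusted p was 0.0744 for each, 0 of 9893 genes passed, and 1973 had an unadjusted p under 0.05. In every library the gate held more CD8A-positive cells than the γδ clusters did, so some came from other clusters. Which clusters these were was not tested. Not run: Treg against CD4 under the marker gate (37 Treg-like cells).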

Other observations

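In all, 3 clusters met no marker list and entered no comparison. Cluster 19 (50 cells, led by ST3GAL1, FMN1 and MYB) had SH2D1A levels of 10.3, 15.6 and 12.3 per 10000 and TARP at 11.6, with the TCRδ transcript at 0 and PRKCH at 3.35, 0.7997 and 5.17. Its SH2D1A lay within the cytolytic-like range or just under it, and its THEMIS level was 1.83 ± 1.72. Its means were 44.3 (SH2D1A), 33.3 (PRKCH), 30.4 (CD226) and 20.3 (THEMIS) times those of γδ T-like cells. The paper counts a small TARP-high cluster of its own, with distinct MYB expression, among its TCRγ/δ T-cells. Whether cluster 19 matches that cluster was not tested. Cluster 17 (55 cells) had CD226 at 4.70 and 4.02 and THEMIS at 7.31 and 2.12 in libraries 1 and 3, with 4 cells in library 2. Cluster 14 (166 cells, led by mitochondrial genes, median mitochondrial share 27.2%) had THEMIS at 11.3 and 6.97 and PRKCH at 3.41 and 5.43 in libraries 1 and 3.

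Cytolytic-like cells with a CD8A or CD8BP score (342) and without (508) had PRKCH at 30.6 ± 4.81 and 32.4 ± 5.39, SH2D1A at 15.9 ± 4.553 and 15.6 ± 6.11, CD226 at 4.21 ± 1.46 and 2.90 ± 0.206 and THEMIS at 1.58 ± 0.737 and 1.13 ± 0.369. These values were not tested.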
